A study of Mus musculus with 16 samples.

Results

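T-box genes encode transcription factors that share a DNA-binding domain first described in the mouse gene Brachyury (T), and 10 of them are described here in hematopoietic stem cells (HSCs) out of 21851 protein-coding genes in all: Tbx1, Tbx2, Tbx3, Tbx4, Tbx5, Tbx15, Tbx18, Tbx20, Tbx21 and Eomes. The 10 genes were listed by name after the peaks of these data had been seen, so the presence and length of peaks at them describe genes picked on such peaks and carry no test. For each gene, the gene body with 5 kb on either side (its window) and 1 kb on either side of each start site (its promoter) were read in GENCODE M21 coordinates of the mm10 genome. HSCs of C57BL/6 mice, sorted from pooled bone marrow as lineage-negative, IL-7- (in the methods an antibody to the receptor, IL-7Rα) and Flt3- cells that were Sca-1+ and c-kit+ and, among those, CD150+, CD48- and CD34-, were compared between young (10-week-old) and aged (20-month-old) animals, which the methods of the study give as female. Sequencing after chromatin immunoprecipitation (ChIP-seq) measured H3K4me3, H3K27me3 and H2AK119ub1 beside input chromatin, and the 16 libraries formed 8 groups of 2. The data analysed here were 6 pooled peak lists, 1 for each mark and age. The spread between replicates could therefore not be measured, and each contrast of young with aged HSCs sets pooled lists side by side without a test. In a bulk sample, fewer cells carrying a mark and less of the mark in each cell cannot be told apart.

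T-box factors set cell fates in the embryo, where each member is switched on in its own tissue. Polycomb repressive complexes keep such developmental genes silent in other cell types. Polycomb repressive complex PRC2 places H3K27me3 and PRC1 places H2AK119ub1, whereas H3K4me3 is found at active or poised promoters. In blood, Tbx21 (T-bet) and Eomes direct the effector programmes of T and natural killer (NK) cells, and the other 8 genes are known mainly for the heart, limbs, face and skeleton.

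The promoters printed here show the range of marks among the 6 genes found in the RefSeq promoter table (build GRCm38.p6). These 6 were Tbx1, Tbx4, Tbx18, Tbx20, Tbx21 and Eomes, and Tbx2, Tbx3, Tbx5 and Tbx15 had no entry. The 200 bases before the RefSeq start are given 5′ to 3′ in the direction of transcription, with CpG dinucleotides in capitals. Tbx21 had H3K27me3 but no H2AK119ub1 in its window at either age. Eomes had all 3 marks over these bases in aged HSCs. The stretches of Tbx20 and of the upstream start of Tbx1 lay entirely under H3K27me3 in young HSCs and under no peak in aged HSCs. The stretch before the downstream start of Tbx4 lay under no peak of any list.
Tbx21, chr11:97115332-97115531, minus strand: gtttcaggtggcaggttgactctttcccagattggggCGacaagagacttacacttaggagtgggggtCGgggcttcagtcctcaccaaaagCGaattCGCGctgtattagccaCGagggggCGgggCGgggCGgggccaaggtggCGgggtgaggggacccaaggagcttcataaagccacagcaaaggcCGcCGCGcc
Eomes, chr9:118477989-118478188, plus strand: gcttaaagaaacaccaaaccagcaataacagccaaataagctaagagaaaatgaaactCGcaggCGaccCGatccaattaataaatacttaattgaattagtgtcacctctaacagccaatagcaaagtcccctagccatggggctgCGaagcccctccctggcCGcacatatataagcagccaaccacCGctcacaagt
Tbx20, chr9:24774304-24774503, minus strand: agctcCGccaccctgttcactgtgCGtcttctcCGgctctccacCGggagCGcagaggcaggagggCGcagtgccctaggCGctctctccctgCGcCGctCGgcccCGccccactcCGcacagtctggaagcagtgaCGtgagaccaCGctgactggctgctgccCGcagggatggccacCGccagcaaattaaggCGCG
Tbx1, chr16:18590672-18590871, minus strand: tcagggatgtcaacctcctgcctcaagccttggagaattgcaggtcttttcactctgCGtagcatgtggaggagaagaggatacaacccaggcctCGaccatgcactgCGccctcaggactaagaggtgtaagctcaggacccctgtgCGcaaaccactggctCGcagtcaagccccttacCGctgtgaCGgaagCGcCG
Tbx4, chr11:85896565-85896764, plus strand: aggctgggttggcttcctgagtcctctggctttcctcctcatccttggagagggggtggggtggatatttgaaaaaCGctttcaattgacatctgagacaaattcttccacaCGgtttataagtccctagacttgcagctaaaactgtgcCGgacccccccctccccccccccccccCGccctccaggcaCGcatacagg
The stretches held 13 CpG for Tbx21, 6 for Eomes, 18 for Tbx20, 9 for Tbx1 and 5 for Tbx4. Over the Eomes bases, young H3K4me3 covered 97 of 200 bp and young H3K27me3 covered all 200 bp, while aged H3K4me3 covered 137 bp and aged H3K27me3 and H2AK119ub1 covered 200 bp each. Over the Tbx21 bases, H3K27me3 covered 200 bp in young and 13 bp in aged HSCs. The T-box half-site AGGTGTGA (TCACACCT on the other strand), searched on both strands of the 200 bases, was found in 1.37% of 16515 genes with an entry and in 0 of these 6 members.

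H3K27me3 was found at the promoters of 10 of 10 genes in both ages, beside 16.0% of all protein-coding genes in young and 8.24% in aged HSCs. It was also found in 10 of 10 windows at both ages, beside 27.8% of all windows in young and 16.5% in aged HSCs. The windows held 90 young and 106 aged H3K27me3 regions. The length under these regions was 175634 bp in young and 92807 bp in aged HSCs, so the aged length was 0.528 times the young. Over the genome this ratio was 0.244, and over all 6081 genes with a young region in the window it was 0.257. The length was lower in aged HSCs at 10 of 10 listed genes, as it was at 5955 of those 6081 genes. The median ratio per gene was 0.458 for the 10 genes and 0.110 for the 6081 genes. The 6081 genes had less of the mark, with a median young length of 2046 bp beside 16366 bp at the 10. The median ratio was 0.181 over the 3506 genes with young H3K27me3 at the promoter. It was 0.443 over the 3 other T-box genes with a young region, Tbr1, T and Tbx22.

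H2AK119ub1 went the other way. It was found at the promoters of 5 of 10 genes in young HSCs, beside 1.91% of all genes, and of 9 of 10 genes in aged HSCs, beside 14.0% of all genes. In windows it was found at 9 of 10 genes at both ages, beside 5.99% of all genes in young and 29.0% in aged HSCs, and Tbx21 was the gene without it. The number of regions was 42 in young and 97 in aged HSCs, and the length under them was 19348 bp in young and 78638 bp in aged HSCs. The ratio of aged to young was 4.06, beside 7.83 over the genome and 3.87 over the 1309 genes with a young region in the window. The median ratio per gene was 5.04 over the 9 genes with a young region and 3.14 over the 1309 genes.

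H3K4me3 was found at the promoters of 3 of 10 genes, Tbx1, Tbx3 and Eomes, in both ages, beside 33.8% of all genes in young and 23.3% in aged HSCs. The members' share was near that of all genes. In windows it was found at 7 of 10 genes in young HSCs, beside 40.6% of all genes, and at 4 of 10 in aged HSCs, beside 29.0%. The windows held 13 young peaks over 3008 bp and 6 aged peaks over 2046 bp. The ratio of 0.680, beside 0.529 over the genome, turned to 1.40 when both lists were cut to the same number of peaks, so no direction is drawn from it.

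**Figure D1:**
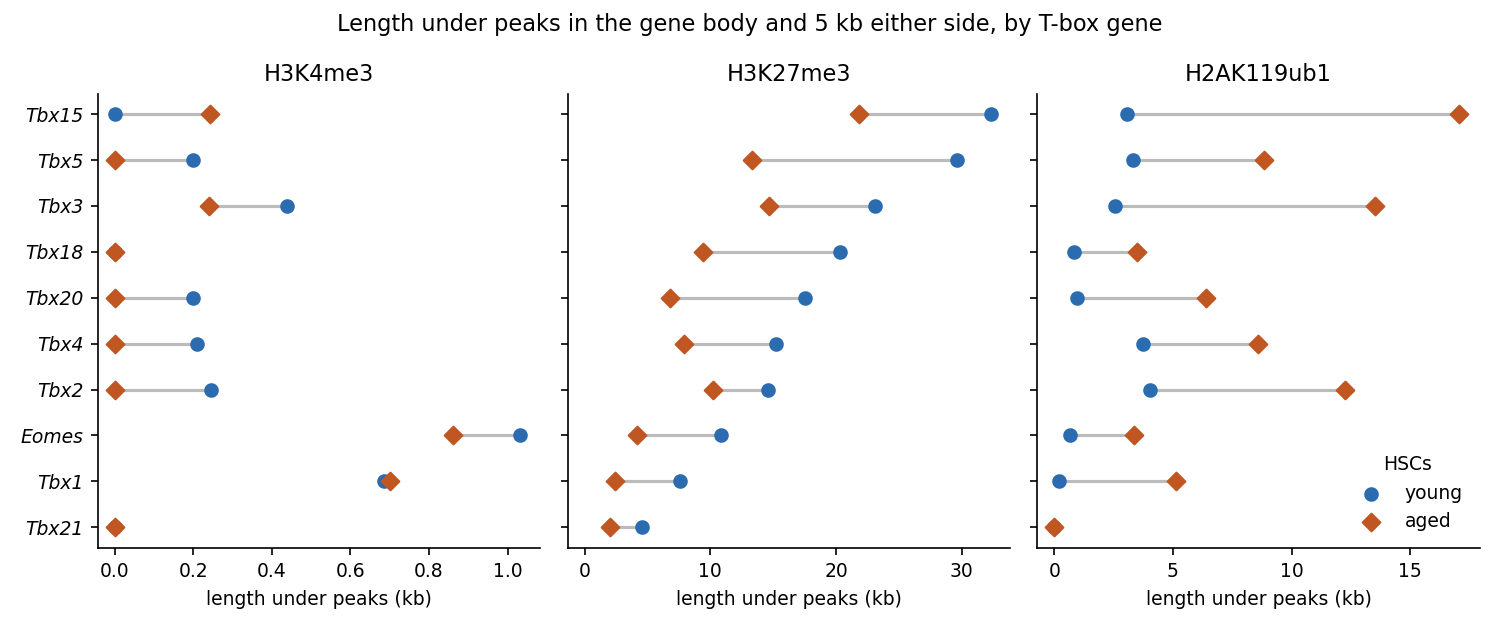
Length under peaks (kb) in the gene body and 5 kb either side for each of the 10 genes, with 1 point per pooled list (circles, young; diamonds, aged) and a line joining the ages, for each mark on its own scale. The aged point lies to the left of the young point for H3K27me3 at all 10 genes and to its right for H2AK119ub1 at 9, while Tbx21 is at 0 for H2AK119ub1 at both ages.

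Tbx2 and Tbx3, transcriptional repressors that hold back chamber genes in the developing heart and also act in limb development, carried long H3K27me3. Tbx3 lies at chromosome 5, 119670669 to 119684724, on the plus strand. H3K27me3 at Tbx3 spanned 23105 bp in young HSCs, 96.0% of the window, and 14635 bp (60.8%) in aged HSCs. H2AK119ub1 at Tbx3 spanned 2549 bp in young and 13504 bp in aged HSCs. All 13504 bp of the aged H2AK119ub1 lay within the young H3K27me3, and its nearest young region lay 1044 bp from a start site, whereas an aged region lay over a start. Tbx2 lies at chromosome 11, 85832551 to 85841948, on the plus strand. H3K27me3 at Tbx2 spanned 14598 bp in young and 10210 bp in aged HSCs, which at 0.699 was the highest ratio of aged to young among the 10 genes. H2AK119ub1 at Tbx2 spanned 4012 bp in young HSCs, the greatest length among the 10 genes, and 12262 bp in aged HSCs. By length of young H2AK119ub1 in the window, Tbx2 ranked 15 among the 21851 genes. Its widest young region, of 1651 bp, lay within an aged region of 4120 bp.

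Tbx5 and Tbx4 set up the forelimb and the hindlimb, respectively, and Tbx5 is also needed in the heart. Tbx5 lies at chromosome 5, 119832668 to 119885219, and Tbx4 at chromosome 11, 85886422 to 85916097, both on the plus strand. H3K27me3 at Tbx5 spanned 29604 bp in young and 13311 bp in aged HSCs, and H2AK119ub1 spanned 3320 bp in young and 8849 bp in aged HSCs. A young H3K27me3 region of 15904 bp lay across the Tbx5 start and was matched by 12 separate aged regions. H3K27me3 at Tbx4 spanned 15236 bp in young and 7901 bp in aged HSCs, and H2AK119ub1 spanned 3725 bp in young and 8574 bp in aged HSCs. The ratio of 2.30 for H2AK119ub1 at Tbx4 was the lowest among the 9 genes that had it. Tbx4 has 3 annotated start sites. At the downstream start, whose preceding 200 bases are printed above, a young H3K27me3 region of 2190 bp began 447 bp past that start and had no aged H3K27me3 or H2AK119ub1 within it.

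Tbx2 and Tbx4, and Tbx3 and Tbx5, are neighbours in the genome. The Tbx3 to Tbx5 interval of 147943 bp was 42.9% under H3K27me3 in young and 18.1% in aged HSCs, and 1.85% under H2AK119ub1 in young and 7.52% in aged HSCs. The Tbx2 to Tbx4 interval of 44473 bp was 15.5% under H3K27me3 in young and 3.44% in aged HSCs. H2AK119ub1 covered none of the Tbx2 to Tbx4 interval in young HSCs and 4.28% of it in aged HSCs. Both marks moved in these intervals in the same directions as at the genes, but the intervals include the 5 kb flanks already counted in the windows. Every aged H3K27me3 and H2AK119ub1 region of the Tbx2 to Tbx4 interval lay in those flanks. That interval therefore largely restates the windows, whereas the Tbx3 to Tbx5 interval reaches far beyond them.

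Tbx15, which acts in the limb and face skeleton and in skin pigmentation, had the greatest length of H3K27me3 at both ages. The gene lies at chromosome 3, 99240381 to 99354259, on the plus strand. H3K27me3 spanned 32302 bp in young and 21853 bp in aged HSCs, and H2AK119ub1 spanned 3059 bp in young and 17086 bp in aged HSCs. By these lengths Tbx15 ranked 82 and 18 among the 21851 genes for young and aged H3K27me3, and 36 and 8 for young and aged H2AK119ub1. The Tbx15 window of 123879 bp is the longest of the 10, which gives a length in bp more room, and 17.6% of it was under aged H3K27me3. Downstream of the protein-coding start, the last aged regions began 9632 bp (H3K27me3) and 11264 bp (H2AK119ub1) away, whereas young H3K27me3 had a region 46421 bp away. An aged H3K27me3 region of 5977 bp lay in an intron 412 bp after the start. An aged H2AK119ub1 region of 3878 bp lay over the same intron, 501 bp from the start.

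Tbx18, Tbx20 and Tbx1 are genes of the epicardium and sinus node, the heart chambers, and the pharyngeal arches and outflow tract, respectively. Tbx18 lies at chromosome 9, 87702800 to 87731260, Tbx20 at chromosome 9, 24718138 to 24774303, and Tbx1 at chromosome 16, 18580979 to 18590671, all on the minus strand. H3K27me3 at Tbx18 spanned 20270 bp in young and 9455 bp in aged HSCs. H2AK119ub1 at Tbx18 spanned 842 bp in young and 3478 bp in aged HSCs, and the aged regions lay entirely within the young H3K27me3. H3K27me3 at Tbx20 spanned 17496 bp in young and 6766 bp in aged HSCs, and H2AK119ub1 spanned 972 bp in young and 6401 bp in aged HSCs. The widest H3K27me3 region at any of the 10 genes lay across the Tbx20 start, with 15982 bp in young HSCs, and 10 aged regions overlapped it. H3K27me3 at Tbx1 spanned 7611 bp in young and 2421 bp in aged HSCs, which at 0.318 was the lowest ratio among the 10 genes. H2AK119ub1 at Tbx1 was a single young region of 200 bp, and 8 aged regions over 5109 bp. That young region, in an intron 1146 bp from the nearest start, is printed in the direction of transcription with its 1 CpG in capitals, because the ratio of 25.5 at Tbx1, the highest of the 9, rests on it.
Tbx1, young H2AK119ub1 region, chr16:18589326-18589525, minus strand: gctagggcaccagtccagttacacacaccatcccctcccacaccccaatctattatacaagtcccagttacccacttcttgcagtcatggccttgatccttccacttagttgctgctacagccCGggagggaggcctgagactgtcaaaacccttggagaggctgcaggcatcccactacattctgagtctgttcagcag

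Tbx21 and Eomes, the pair with known roles in T and NK cells, had the shortest and the third shortest H3K27me3 in young HSCs. Tbx21 lies at chromosome 11, 97098071 to 97115331, on the minus strand. H3K27me3 at Tbx21 spanned 4560 bp in young and 2048 bp in aged HSCs, in 11 young and 4 aged regions. No young region at Tbx21 was wider than 1151 bp. Tbx21 carried neither H3K4me3 nor H2AK119ub1 in its window at either age, and these zeros say only that no peak was called. Eomes, which is also needed for gastrulation and the trophoblast, lies at chromosome 9, 118478212 to 118486132, on the plus strand. H3K27me3 at Eomes spanned 10852 bp in young and 4207 bp in aged HSCs. H2AK119ub1 at Eomes spanned 669 bp in young and 3375 bp in aged HSCs. Of the young H2AK119ub1 length at Eomes, 8.97% lay under an aged region, whereas at Tbx2 that share was 97.1% and at Tbx18 and Tbx1 it was 100%. The Tbx1 share rests on 200 bp. Between these lay Tbx20 (35.5%), Tbx5 (47.5%), Tbx4 (74.3%), Tbx3 (83.8%) and Tbx15 (92.2%).

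**Figure D2:**
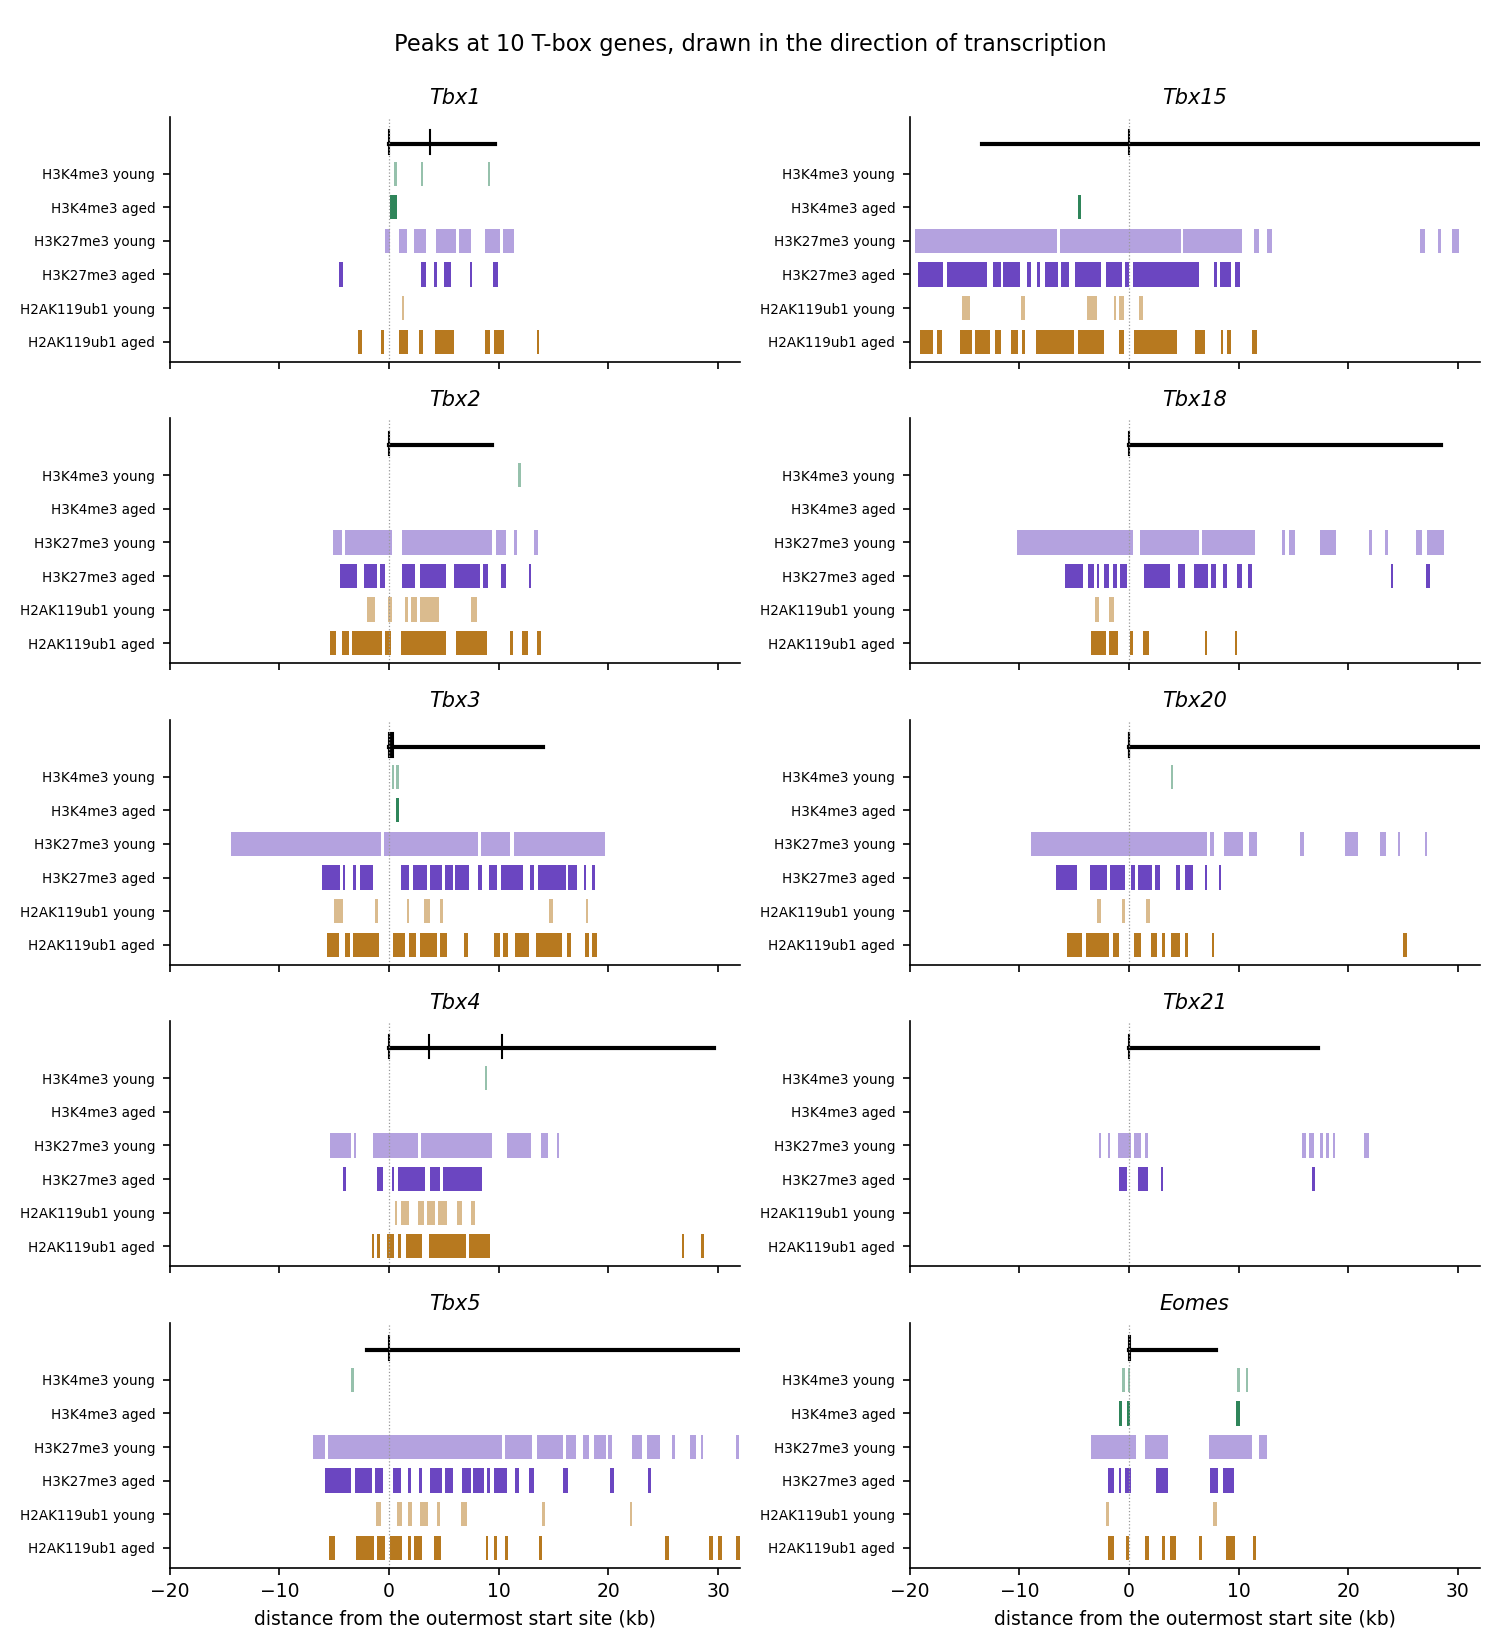
Peaks of the 6 lists that touch the window of each of the 10 genes, by distance (kb) from the outermost protein-coding start site in the direction of transcription (pale, young; dark, aged; black line, gene body; black ticks, start sites; 13 of 354 peaks lie outside the drawn range of -20 to 32 kb). Long young H3K27me3 regions stand above several shorter aged ones. Aged H2AK119ub1 overlaps part of the young H3K27me3 length at every gene but Tbx21, from 17.2% at Tbx18 to 73.2% at Tbx2.

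The position of the regions at the start sites differed between the ages. Young H3K27me3 lay over the base of a start site at 10 of 10 genes, beside 7.04% of all genes. Aged H3K27me3 did so at 2 of 10, Tbx15 and Eomes, beside 1.77% of all genes. At the other 8 genes the nearest aged region lay between 131 bp (Tbx4) and 715 bp (Tbx3) from a start. Among all genes with H3K27me3 at the promoter, a region lay over a start base at 43.9% of 3506 genes in young and 21.4% of 1800 genes in aged HSCs. H2AK119ub1 lay over a start base at 2 of 10 genes in young HSCs, Tbx2 and Tbx4, beside 0.174% of all genes. In aged HSCs it did so at 4 of 10, Tbx2, Tbx3, Tbx4 and Eomes, beside 2.32% of all genes. Just inside the promoter limit of 1000 bp lay an aged H2AK119ub1 region of Tbx18 at 995 bp, and just outside lay a young H3K27me3 region of the same gene at 1034 bp. Just inside the window limit of 5000 bp lay an aged H2AK119ub1 region of Tbx2 at 4885 bp from the gene, and just outside lay an aged H3K27me3 region next to Tbx3 at 5092 bp.

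**Figure D3:**
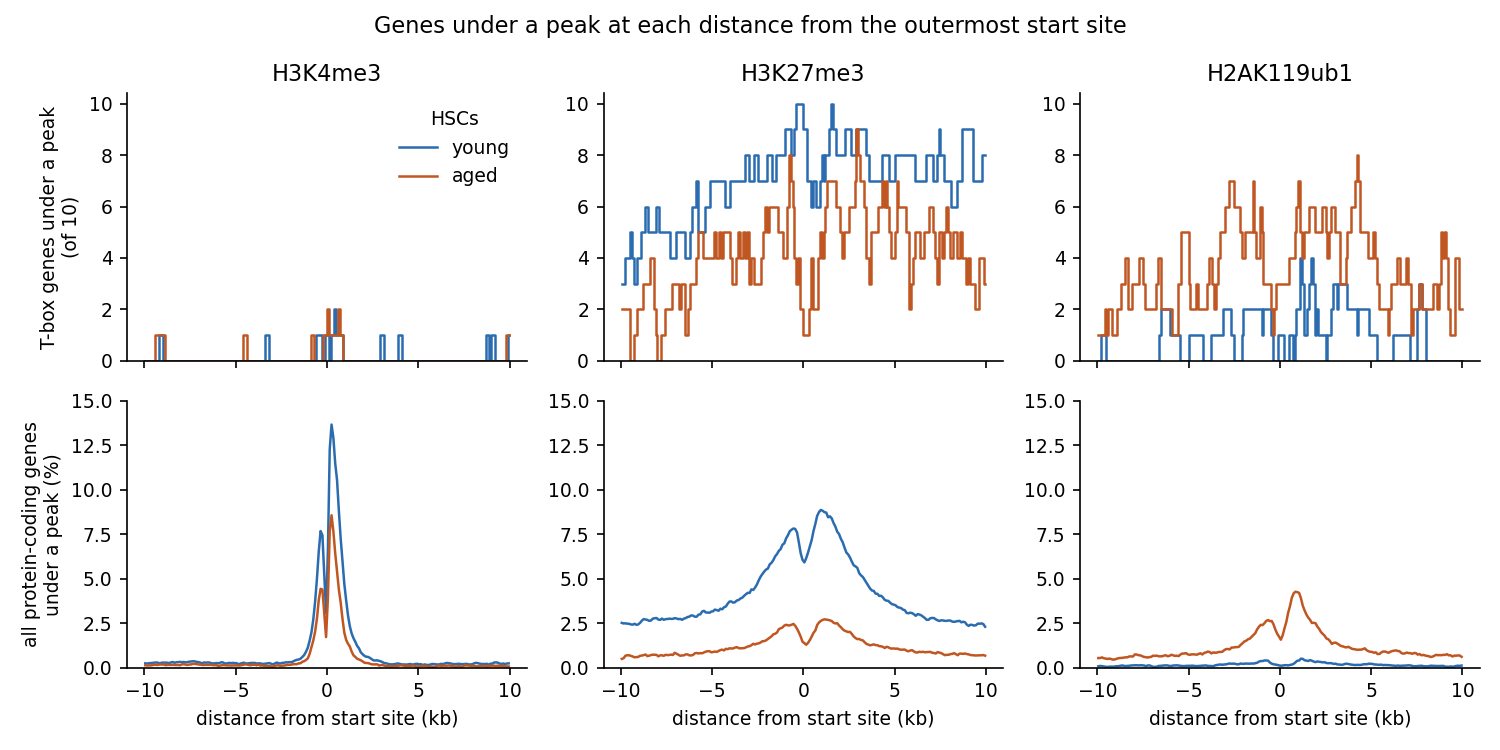
Number of the 10 genes (top) and percent of all protein-coding genes (bottom) under a peak in steps of 100 bp, by distance (kb) from the outermost start site. At the start itself 9 to 10 genes were under young and 1 to 2 under aged H3K27me3, whereas for aged H2AK119ub1 the number was 3 and reached 8 downstream.

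Away from the start, H3K27me3 at the 10 genes stayed broad. From 5 to 10 kb downstream a mean of 7.62 of the 10 genes was under young and 4.42 under aged H3K27me3, and from 5 to 10 kb upstream the means were 4.86 and 2.46. Over all genes, young H3K27me3 covered a mean of 2.76% and aged H3K27me3 0.837% downstream, and 2.75% and 0.728% upstream. For aged H2AK119ub1 these means were 2.72 downstream and 2.46 upstream, and for young H2AK119ub1 0.48 and 0.38. Over all genes the aged H2AK119ub1 means were 0.780% downstream and 0.633% upstream, and the young ones 0.119% and 0.108%. The whole length of the regions, also where it ran beyond the window, was split by part of the gene. Of it, 52.8% of young and 57.2% of aged H3K27me3 lay in introns, and 29.4% and 27.9% lay upstream of the gene. Coding exons held 4.00% of young and 3.69% of aged H3K27me3. For H2AK119ub1, introns held 63.8% in young and 52.2% in aged HSCs, and 22.3% and 26.3% lay upstream of the gene. The share of the windows in each part is not set beside these values, so no preference is drawn.

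Aged H3K27me3 lay almost wholly within the young regions. Of the 106 aged regions, 101 (95.3%) overlapped a young one by at least 1 bp, and 94.3% of their length did. Of the 90 young regions, 37 (41.1%) overlapped an aged one, and 49.8% of the young length was under aged H3K27me3. In the whole lists, 66.0% of aged and 15.4% of young regions overlapped the other age. The median width of the regions at the 10 genes was 652.5 bp in young and 597.5 bp in aged HSCs, beside 397 bp and 363 bp in the whole lists, and wider regions have more room to overlap. The widest region was 15982 bp in young and 5977 bp in aged HSCs. Fold enrichment, averaged over a region, ran from 2.52 to 4.78 in young and from 2.78 to 4.01 in aged H3K27me3, and from 2.75 to 3.90 in young and from 2.69 to 4.62 in aged H2AK119ub1. The highest −log10 q-value, the strength of a call after adjustment for multiple testing, was 6.21 for young and 3.44 for aged H3K27me3, and 3.32 for young and 4.76 for aged H2AK119ub1. With peaks of a −log10 q-value of 4 or more alone, promoter H3K27me3 was at 0 of the 10 genes in aged HSCs, and promoter H2AK119ub1 at 0 in both ages. The median fold of H3K27me3 was 3.33 in young and 3.24 in aged HSCs at the 10 genes, beside 3.10 and 3.13 in the whole lists.

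The regions wider than 2 kb show how the young and aged lists met. There were 22 such young H3K27me3 regions, at 8 of the 10 genes, and Tbx1 and Tbx21 had none. Of these, 19 overlapped more than 1 aged H3K27me3 region and 2 overlapped none, 1 at Tbx4 (2190 bp) and 1 at Tbx5 (2381 bp). The median was 3.5 aged regions, which covered a median of 60.2% of the young region. Aged H2AK119ub1 overlapped 21 of the 22, with a median of 38.0% of the length. Among all 2787 young regions wider than 2 kb in the genome, 59.6% overlapped more than 1 aged H3K27me3 region and 13.5% overlapped none. Aged H2AK119ub1 overlapped 62.8% of them. The 22 regions, which reached 15982 bp, were not matched to the 2787 by width, and wider regions have more room to overlap. The median covered share was 32.1% for aged H3K27me3 and 12.5% for aged H2AK119ub1. The highest share under aged H3K27me3 was 83.5%, over the region of 10973 bp at Tbx15, and the highest under aged H2AK119ub1 was 84.2%, over the region of 4249 bp at Tbx2.

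**Figure D4:**
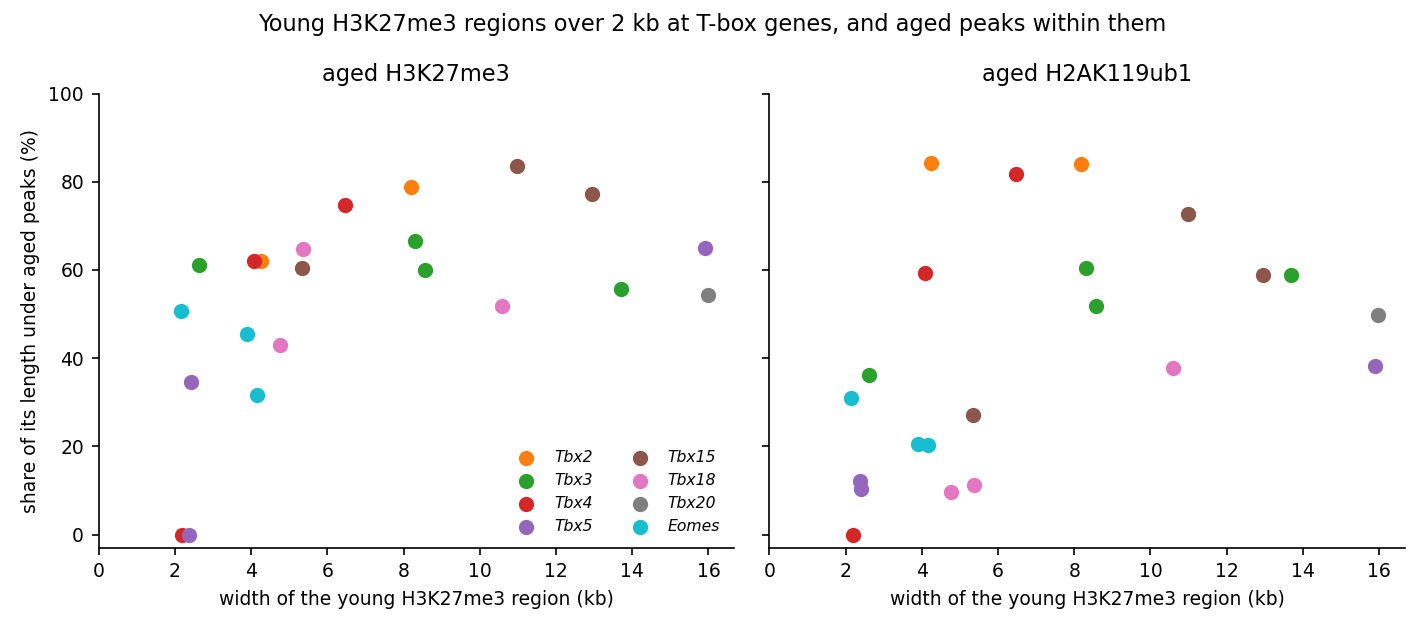
Share of each of the 22 young H3K27me3 regions wider than 2 kb that lay under aged H3K27me3 (left) or aged H2AK119ub1 (right), in percent, by the width of the young region in kb; each point is a region and each colour a gene. Tbx2, Tbx4 and Tbx15 reach the highest shares for both marks, and the regions at Eomes reach at most 50.7% in the left panel and 31.0% in the right.

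The overlap of the Polycomb marks differed by which mark it was counted over, with a higher share of H3K27me3 and a lower share of H2AK119ub1 in the aged lists. In young HSCs, 97.6% of the H2AK119ub1 length lay within H3K27me3, which was 10.8% of the H3K27me3 length. In aged HSCs, 65.3% of the H2AK119ub1 length lay within aged H3K27me3, and it covered 55.4% of the H3K27me3 length. Over the whole lists these shares were 74.4% and 1.74% in young and 26.4% and 19.8% in aged HSCs, so they shifted in the same directions. The share of H3K27me3 under H2AK119ub1 in aged HSCs ran from 19.9% at Tbx18 to 83.5% at Tbx2 among the 9 genes with both. Of the aged H2AK119ub1 length, 90.4% lay within H3K27me3 of the young list, beside 49.8% over the genome. By promoter, H3K27me3 and H2AK119ub1 were found together at 5 of 10 genes in young HSCs, Tbx2, Tbx4, Tbx5, Tbx15 and Tbx20, beside 1.65% of all genes. In aged HSCs they were together at 9 of 10, beside 4.99% of all genes. Of the 5 genes without young H2AK119ub1 at the promoter, Tbx1, Tbx3, Tbx18 and Eomes had a young region 1044 to 1836 bp from a start, and Tbx21 had none. With promoters of 2 kb on either side, young H2AK119ub1 was at 9 of 10, beside 3.11% of all genes.

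Counted by gene over any of its start sites, H3K4me3 and H3K27me3 were both at the promoters of 3 of 10 genes in both ages. The share of all genes was 2.96% in young and 0.792% in aged HSCs. The genes were Tbx1, Tbx3 and Eomes, and in young HSCs each of the 3 had bases under both marks. In aged HSCs the marks of Tbx1 lay at different start sites, and neither Tbx1 nor Tbx3 had a base under both. At Eomes, 433 bp lay under both aged marks. At Eomes, H3K4me3 lay over the start in both ages, with a young peak of 240 bp (fold enrichment 3.36 over background, 29 reads at the summit) and an aged peak of 248 bp (fold 5.08, 22 reads). At Tbx1, the young peak nearest to a start, of 257 bp, lay in an intron 443 bp away (fold 5.53, 25 reads) and the aged peak of 702 bp began 46 bp from the start (fold 5.08, 22 reads). At Tbx3, peaks of 223 and 215 bp in young HSCs (fold 4.64 and 3.83) and of 241 bp in aged HSCs (fold 2.96) lay within annotated untranslated sequence. Young peaks at Tbx2, Tbx4, Tbx5 and Tbx20, which had none at the promoter, measured 200 to 244 bp and lay 1424 to 11799 bp from a protein-coding start. With the starts of all transcripts, Tbx20 did have a young promoter peak, and with promoters of 2 kb either side Tbx4 had one. An aged peak of 242 bp at Tbx15 lay 4372 bp from the start. Of the young H3K4me3 length, 83.3% lay within young H3K27me3 and none within young H2AK119ub1. Of the aged length, 33.0% lay within aged H3K27me3 and 32.2% within aged H2AK119ub1. The aged H3K27me3 share came from Tbx15 and Eomes alone. With only 6 aged peaks, and no share over the whole lists beside them, no change with age is drawn from these shares.

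The 7 other T-box genes fell into groups by the same marks. Tbr1, which acts in cortical neurons, T (Brachyury), which acts in the primitive streak, and Tbx22, a palate gene, carried H3K27me3 at the promoter in both ages and H2AK119ub1 in aged HSCs. Tbx6, Tbx10, Tbx19 and Mga carried neither mark in their windows in any list. At Tbr1, H3K27me3 spanned 13048 bp in young and 7825 bp in aged HSCs, and H2AK119ub1 spanned 1934 bp and 5273 bp. At T, H3K27me3 spanned 7283 bp in young and 2613 bp in aged HSCs, and H2AK119ub1 was absent from the young list and spanned 2544 bp in the aged list. At Tbx22, H3K27me3 spanned 6322 bp in young and 2800 bp in aged HSCs, and H2AK119ub1 spanned 591 bp in aged HSCs alone. H3K27me3 was thus longer in the young list, and H2AK119ub1 in the aged list, at each of these 3 genes.

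CpG content, read over 2001 bp around the start as observed over expected CpG dinucleotides, differed among these genes. Its median was 0.688 over the 10 listed genes, 0.559 over Tbr1, T and Tbx22, 0.287 over the other 4 T-box genes and 0.484 over all protein-coding genes. The range over the 10 was 0.231 at Tbx5 to 0.943 at Tbx18. CpG content did not sort the genes by mark, since Mga at 0.774 carried neither Polycomb mark and Tbx22 at 0.112 carried both in aged HSCs. Tbx21, with no H2AK119ub1, had a CpG ratio of 0.718, between those of Tbx15 (0.658) and Eomes (0.745), which had it. Within the regions, the median CpG ratio was 0.216 for young and 0.352 for aged H3K27me3, and 0.377 and 0.373 for H2AK119ub1, each above that of its whole list (0.178, 0.206, 0.236 and 0.240).

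**Figure D5:**
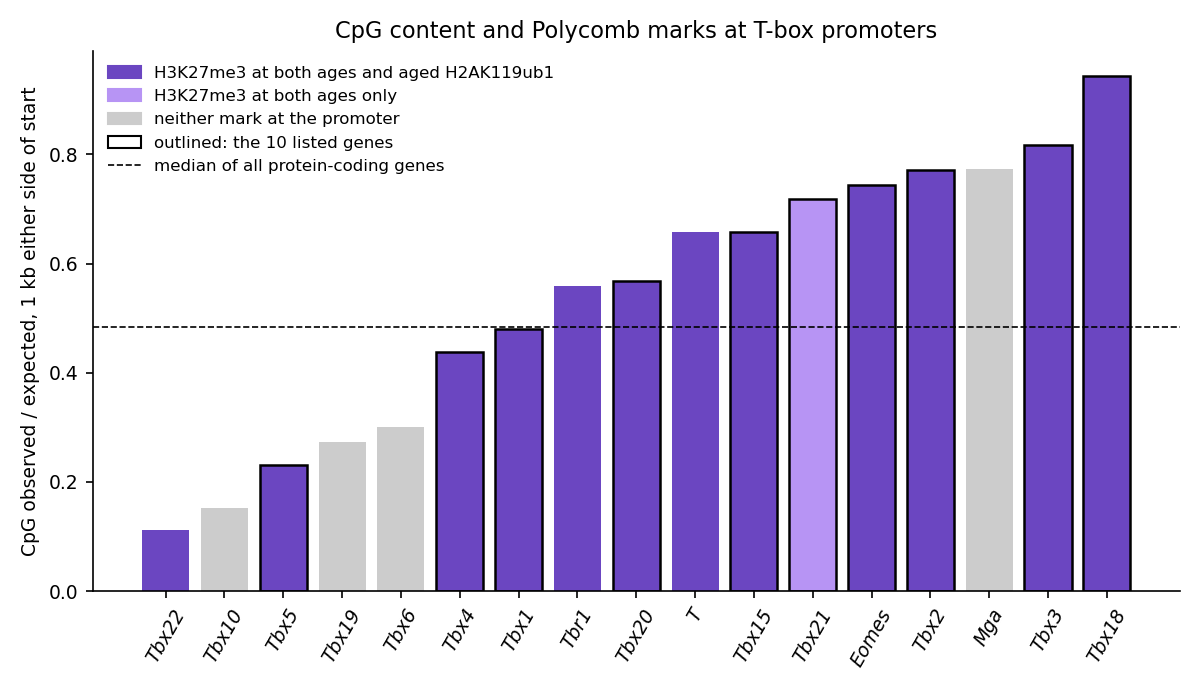
Observed over expected CpG within 1 kb either side of the start for the 17 T-box genes, in ascending order, coloured by promoter marks (dark, H3K27me3 at both ages and aged H2AK119ub1; pale, H3K27me3 at both ages only; grey, neither), with the 10 listed genes outlined and the median of all protein-coding genes (0.484) dashed. Tbx21 is the pale bar at 0.718, and Mga at 0.774 is grey.

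Facts of the whole lists bear on these values. The lists held 63142 young and 20419 aged H3K27me3 regions, 2593 young and 17768 aged H2AK119ub1 regions, and 11371 young and 6723 aged H3K4me3 peaks, so the directions at the 10 genes were those of the lists. Whether the ages differed in depth or pull-down for the broad marks was not tested. H3K4me3 summits held a median of 20 reads for young and 19 for aged HSCs. H3K4me3 was at the promoters of 8 young and 7 aged of 11 HSC genes, and at none of 4 NK, 5 T cell and 4 granulocyte and monocyte marker genes in either age. It was also at 1 of 4 B cell genes (Ebf1) and 1 of 4 stroma and endothelium genes (Cxcl12) in both ages, and at 2 of 3 erythroid genes at the young age and 0 at the aged one. In all, 9 of the 10 windows also hold other annotated genes, among them Wars2 at Tbx15, Gm11444 at Tbx2 and the antisense Tbx3os1 at Tbx3, and a peak there cannot be given to a single gene.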

How the data were processed

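ChIP-seq libraries of young and aged HSCs (H3K4me3, H3K27me3, H2AK119ub1 and input) were grouped by the labels. The authors aligned single reads to mm10 with Bowtie2, and the submitters' processing notes name MACS2 2.2.6. The authors deposited pooled peak lists in which each peak has a fold enrichment over background (a linear ratio), a −log10 p-value and a −log10 q-value, averaged over the region for broad marks. Peak names carry q0.05 for H3K4me3 and b0.1 for the broad marks. Those of H3K4me3 carry a pair of library numbers and those of the broad marks a single number, which leaves it unclear whether the broad lists hold both replicates. A peak strong in 1 library can enter a pooled list, and the caller's threshold sets which regions are joined or split.

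Peaks of the autosomes (1 to 19), X and Y were kept and compared by overlap of at least 1 bp. The tools were pandas 2.3.3, numpy 2.4.6 and scipy 1.17.1 under Python 3.11.15, with samtools 1.23.1 and pysam 0.24.0 for sequence. Plots used matplotlib 3.10.9. Starts were those of protein-coding transcripts in the basic set of GENCODE M21 (41438 starts, 21851 genes). Lengths under peaks are unions within the window. The shares by part of the gene and within regions wider than 2 kb use whole regions instead. A peak list does not hold the sequencing depth, so no interval is given. Summit reads of H3K4me3 were recovered from the fold and the p-value to within 0.01 for 100% of peaks. Overlap and recovery were tested on simulated data. All 10 genes were named in full. The lists of other T-box genes, of partners and targets, and of cell type markers, and the 10 genes themselves, were chosen with earlier results of these data known. The alternatives were a stricter −log10 q-value (4 or more), equal numbers of peaks, other promoter and window sizes, all start sites and an overlap of at least 50%. For equal numbers, H3K4me3 peaks were ranked by −log10 q-value and broad regions by width.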

Additional observations from a re-analysis of the deposited data

How the results depend on the processing

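No paired analysis was possible because the lists are pooled, 1 per mark and age, and carry no values by replicate number. Of 44 alternatives to 12 results, 37 stayed within 1.5 times the value given and on the same side of an equal length. At a stricter −log10 q-value (4 or more), the number of genes with promoter H3K27me3 in aged HSCs fell from 10 to 0, the ratio of aged to young H3K27me3 length went from 0.528 to 0, and the number with promoter H2AK119ub1 went to 0 in both young and aged HSCs, because the whole lists then held 39 aged H3K27me3, 5 young H2AK119ub1 and 128 aged H2AK119ub1 regions. The ratio for H2AK119ub1 could not be given there, since no young region was left. With equal numbers of peaks, the ratio for H3K4me3 turned from 0.680 to 1.40, because the young list lost its lower-ranked peaks. With promoters of 2 kb either side, young H2AK119ub1 was at 9 genes in place of 5. With an overlap of at least 50% of the young region, 21 young H3K27me3 regions counted as shared in place of 37, and the cause was not tested. The ratio of H3K27me3 length stayed between 0.493 and 0.569 for the other window sizes and for equal numbers, and that of H2AK119ub1 between 3.00 and 4.26. For equal numbers the broad lists were cut to their widest regions, which keeps the wide regions of these genes. The young H3K27me3 length at the 10 genes fell only from 175634 to 163028 bp. The steady ratios of the broad marks under equal numbers therefore say little.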

Other observations

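Of 15 partners and targets of T-box factors, 11 carried H3K27me3 at the promoter in young and 9 in aged HSCs, beside 16.0% and 8.24% of all genes. H2AK119ub1 was at 4 of these promoters in young and 10 in aged HSCs, beside 1.91% and 14.0% of all genes. H3K4me3 was at 5 young and 3 aged promoters of the 15, near the 33.8% and 23.3% of all genes. At Gata4, a cardiac partner of Tbx5, H3K27me3 spanned 47355 bp in young and 25447 bp in aged HSCs, and H2AK119ub1 spanned 7262 bp and 17552 bp. H3K4me3 was at the promoter of Fgf10, a limb bud growth factor gene, in both ages beside H3K27me3. The effector genes that T-bet controls differed among themselves. Ifng, the interferon gamma gene, had no peak in its window in any list. Cxcr3, a chemokine receptor gene, had 939 bp of H3K27me3 in young and 464 bp in aged HSCs and no other mark. Runx3, a T-bet partner, had 7973 bp of H3K27me3 in young and 3879 bp in aged HSCs, with 715 bp and 3988 bp of H2AK119ub1. Prdm1, a regulator of terminal lymphocyte differentiation, had promoter H3K4me3 in both ages and H3K27me3 away from its promoter only. It also had 2383 bp of H2AK119ub1 in aged HSCs alone, 1349 bp from a start at the nearest. Il12rb2, another of the 15, had a young H3K4me3 peak at its promoter and no other peak in its window.

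The gene whose lengths over the 6 lists lay nearest to each member was found by Euclidean distance on log2(length + 100 bp), as a description over 6 values. For Tbx2 it was Dlx1 (distance 0.68), for Tbx3 Lhx9 (0.54), for Tbx4 Pdx1 (0.33), for Tbx5 Sim1 (0.66), for Tbx15 Otx2 (0.90) and for Tbx20 Onecut1 (0.39), all of them genes of transcription factors. For Tbx18 it was Srrm3 (0.51), for Tbx21 Pnoc (0.033), for Tbx1 4930412O13Rik (0.77) and for Eomes 9230102O04Rik (1.18). Tbx21 and Pnoc were both at 0 in 4 of the 6 lists, which leaves few values to tell them apart.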
